A study of Mus musculus with 4 samples.

Results

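The adhesion genes described here are 37 genes that let T cells hold on to other cells and to tissue: the integrin alpha and beta chains, the selectin ligand Selplg, the immunoglobulin-type ligands Icam1, Icam2, Vcam1 and Pecam1, the receptors Cd44, Cd47 and Cd226, and the tetraspanins Cd9, Cd81 and Cd151. They were listed by gene name, and 36 of the 37 had a probe annotated to that gene alone, out of 22180 genes measured. Itga10 is not reported. Expression was measured in regulatory T cells taken from mice on day 7 after NP-OVA in complete Freund's adjuvant (CFA), with 1 array for each of 4 groups. KO TFR and KO non-TFR cells came from mice of the genotype Prdm1fl/flFoxP3YFP-Cre, and WT TFR and WT non-TFR cells came from mice of the genotype FoxP3YFP-Cre. All 4 groups therefore carried the Foxp3-driven YFP and Cre, and the KO mice had floxed alleles of Prdm1, the gene of the repressor Blimp-1, which Cre removes in Foxp3-expressing cells. TFR cells were sorted as CD4+, YFP+, PD1+ and CXCR5+, and non-TFR cells as CD4+, YFP+ and CXCR5-. The sources used here do not give the ages of the mice or whether animals were pooled for an array.

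Integrins are pairs of an alpha and a beta chain that span the membrane. The alpha chain largely sets the ligand, the beta chain couples the pair to the actin skeleton, and proteins inside the cell such as talin, kindlin and the small GTPase Rap1 switch the pair to its binding state. In T cells the pair LFA-1 holds the contact with antigen-presenting cells, alpha4 integrins serve entry into tissues, and on regulatory T cells the pair alphaVbeta8 is known for releasing active TGF-beta from its latent form. Selectin ligands such as PSGL-1 serve rolling on vessel walls once enzymes have added the right sugars, and tetraspanins are membrane organizers that sit beside integrins.

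Levels are normalized log2 values, and each difference is KO minus WT or TFR minus non-TFR. With 1 array a group no difference has a replicate check, a test or an error, and a level is compared between arrays for the same gene only. A gene is called expressed here when its mean over the 4 arrays lay above 5.91, the median of all genes, which 11090 genes and 25 of the 36 measured adhesion genes did. No fold is given where either array lay below that limit. The markers of the labelled cells were present: Foxp3 was at 11.87 in KO TFR, 12.36 in WT TFR, 12.42 in KO non-TFR and 12.45 in WT non-TFR cells, and all 11 measured genes of the regulatory T cell and gate list were expressed. Prdm1 was at 7.32 in KO TFR and 8.21 in WT TFR cells, and at 7.59 in KO non-TFR and 7.80 in WT non-TFR cells; which part of the gene its probes cover is not known here, so this does not check the deletion. Of other cell types, 7 of 9 measured B cell markers, 11 of 12 myeloid, 6 of 7 dendritic cell, 5 of 7 platelet, 9 of 10 endothelial and 8 of 10 stromal markers lay at or below the limit. CD8 T and NK cell markers are given below. Among the markers above the limit, the B cell marker Cd79b lay between 8.08 and 8.42 and the dendritic cell marker Cd209a between 8.05 and 8.54. The limit is a median of genes and not a detection call, so these counts do not show purity. In bulk samples fewer cells that make a transcript and less transcript per cell cannot be told apart.

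**Figure D1:**
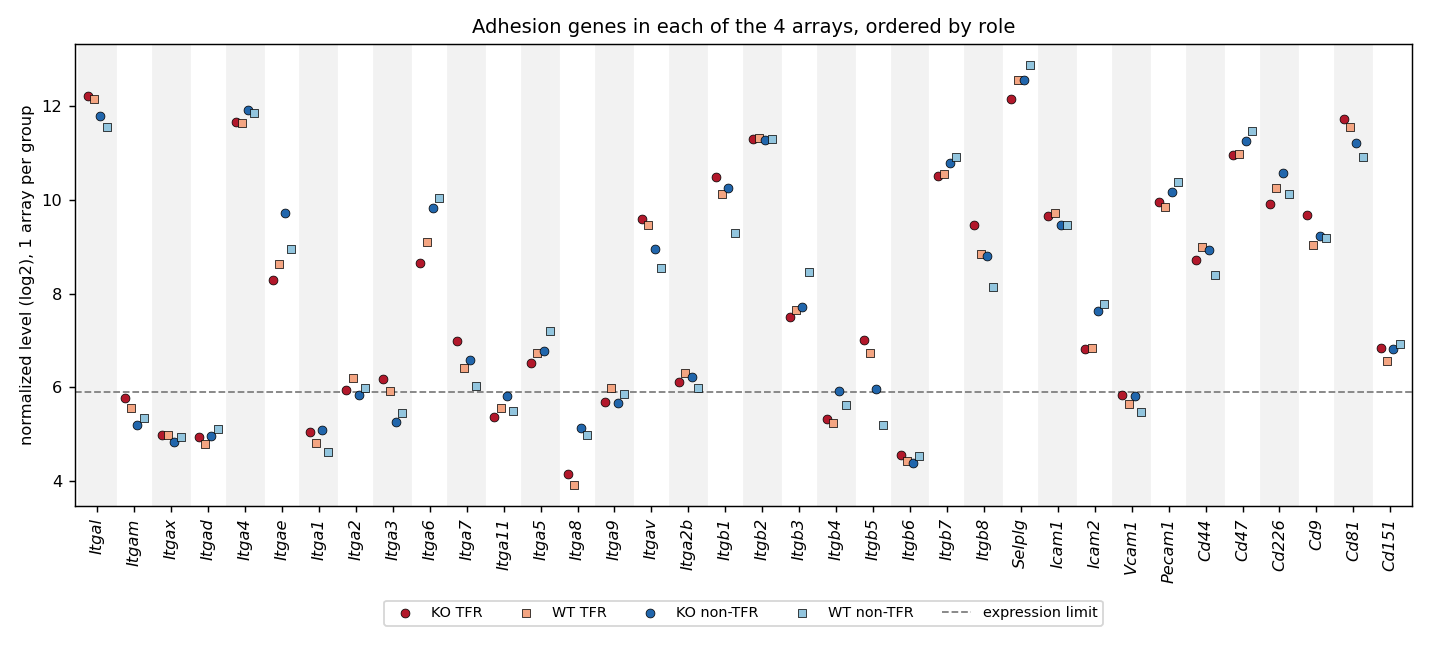
Normalized log2 level (vertical axis) of the 36 measured adhesion genes, ordered by role along the horizontal axis, with 1 point per array and no error bars because each group is 1 array; the dashed line is the expression limit of 5.91. Itgb2 and Itga4 sit within 0.04 and 0.27 of each other across the arrays, whereas Itgb5, Itgae, Itga6 and Itgb8 spread over 1.81, 1.43, 1.38 and 1.31.

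Between genotypes the adhesion genes differed little in size. No expressed member was 2-fold apart in either population, and 2-fold differences were also rare among all expressed genes: 0.442% were higher and 0.234% lower in KO TFR cells, and 0.775% were higher and 0.126% lower in KO non-TFR cells. At 1.5-fold, Cd9 and Itgb8 were higher in KO TFR cells, 2 of 25 expressed members beside 2.16% of expressed genes, and 0 were lower, beside 1.56%. In KO non-TFR cells Itgb1, Itgae, Itgb5 and Itgb8 were higher, 4 of 25 beside 3.69% of expressed genes, and Itgb3 alone was lower, 1 of 25 beside 1.09%. Itgb5 is counted there from its log2 difference of 0.78, with its WT non-TFR array below the limit. The median difference over the 36 measured members was 0.030 in TFR cells and 0.017 in non-TFR cells, beside 0.013 and 0.030 over all genes. The 9 measured proliferation genes had KO minus WT differences from -0.15 to 0.33 in TFR cells and from 0.66 to 1.65 in non-TFR cells, where Cdk1, Nusap1, Birc5 and Bub1 have no fold because the WT array lay below the limit. The gate genes also differed between the genotypes in both populations: Cxcr5 was at 8.90 in KO non-TFR and 8.06 in WT non-TFR cells (1.79-fold higher in the knockout), and Pdcd1 was at 8.96 in KO non-TFR and 7.44 in WT non-TFR cells (2.86-fold higher). In TFR cells Cxcr5 was at 10.39 in the knockout and 9.52 in the control (1.83-fold higher), and Pdcd1 at 10.68 in the knockout and 9.86 in the control (1.77-fold higher). The part of the proliferation and gate genes in the adhesion differences was not tested.

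TFR and non-TFR cells stood further apart. In the knockout, Itgb5 was at least 2-fold higher in TFR cells, 1 of 25 expressed members beside 3.03% of expressed genes, and Itgae and Itga6 were at least 2-fold lower, 2 of 25 beside 1.37%. In the control, Itgb5 was the 1 member of 25 with a difference above 1 on the log2 scale, at 1.55, beside 4.13% of expressed genes past 2-fold; its WT non-TFR array was below the limit and it counted as expressed through its other arrays, so this count supports nothing. In the control 0 members were 2-fold lower, beside 1.36%. At 1.5-fold, Itgb5, Itgb8 and Itgav were higher in KO TFR cells (3 of 25, beside 8.54%) and Itgae, Itga6, Icam2 and Cd226 were lower (4 of 25, beside 6.2%). The same limit in the control found Itgb5, Itgav, Itgb1, Itgb8, Cd81, Cd44 and Itgal higher in TFR cells (7 of 25, beside 10.3%) and Itga6, Icam2 and Itgb3 lower (3 of 25, beside 5.76%). Itgb5 is again in this count with its WT non-TFR array below the limit, and its KO non-TFR level of 5.97 lay just above it. The member medians were -0.003 in the knockout and 0.054 in the control, beside 0.000 and 0.015 over all genes. Each array enters one genotype and one population comparison, so the comparisons that share an array are not separate evidence. The populations also differed in proliferation genes. The 9 measured ones had TFR minus non-TFR differences from 1.78 to 2.81 in the knockout, where Birc5 and Bub1 lay below the limit in non-TFR cells, and from 2.78 to 3.97 in the control, where Cdk1 and Nusap1 did so as well. They had summed linear levels of 7627 in KO TFR and 1645 in KO non-TFR cells, and of 7095 in WT TFR and 727 in WT non-TFR cells. Of the 8 CD8 T and NK cell markers 6 lay at or below the limit, and the summed level of the list was 730 in KO TFR, 765 in WT TFR, 905 in KO non-TFR and 944 in WT non-TFR cells. Its 2 expressed genes were Cd8b1, at 8.73 in KO TFR, 8.73 in WT TFR, 9.29 in KO non-TFR and 9.42 in WT non-TFR cells, and Eomes, at 6.53, 7.09, 6.36 and 6.71 in the same groups. The part of both lists in these differences was not tested.

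**Figure D2:**
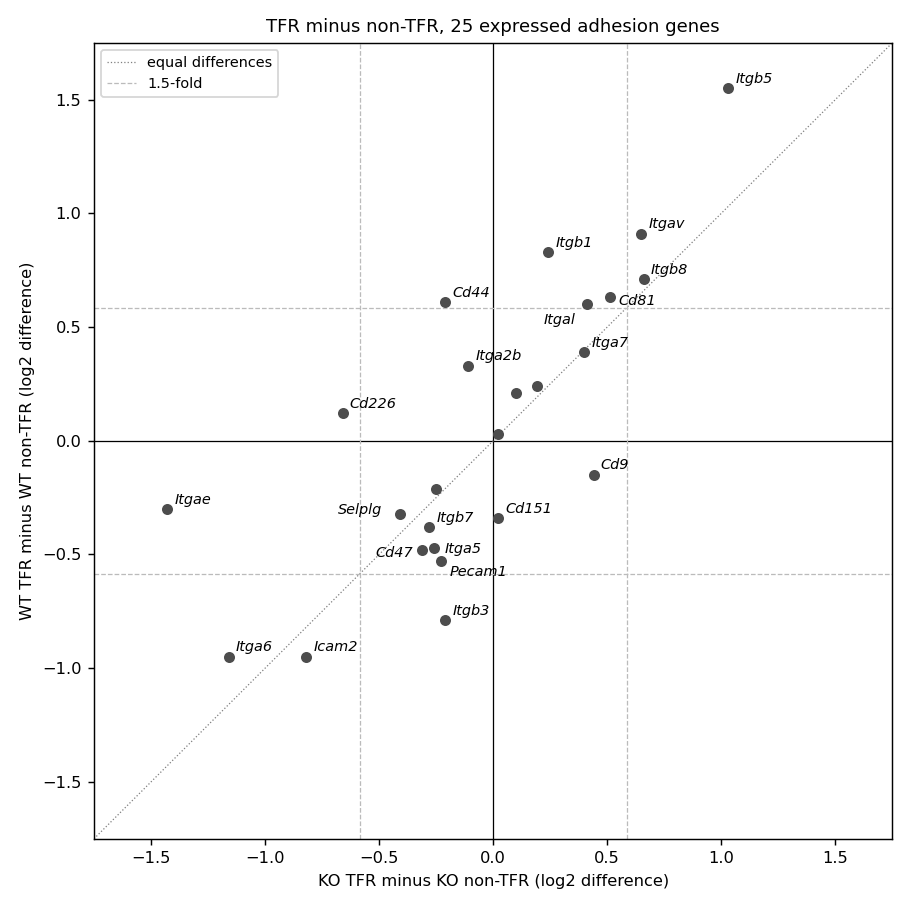
Log2 difference TFR minus non-TFR of the 25 expressed adhesion genes, in the knockout (horizontal axis) and in the control (vertical axis), each point a gene and each axis a pair of arrays; dashed lines mark 1.5-fold and the dotted line equal differences. Itgb5 lies highest on both axes at 1.03 and 1.55, but its WT non-TFR array lay below the expression limit and its KO non-TFR array just above it. Itga6 and Icam2 lie low on both axes, and Itgae lies at -1.43 in the knockout and -0.30 in the control.

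The beta2 integrins are the leukocyte integrins. Itgb2, the chain they share, was at 11.30 in KO TFR, 11.32 in WT TFR, 11.28 in KO non-TFR and 11.29 in WT non-TFR cells, the narrowest spread of the 36 measured members. Its LFA-1 partner Itgal, the chain that binds ICAMs, was at 12.20 in KO TFR and 12.15 in WT TFR cells, against 11.79 in KO non-TFR and 11.55 in WT non-TFR cells. Both TFR arrays were above both non-TFR arrays, by 0.41 in the knockout (1.33-fold) and 0.60 in the control (1.52-fold), so that the LFA-1 chains were unlike: alpha higher in TFR cells, beta level. The 3 other partners of Itgb2, all known from myeloid cells, lay below the limit in every array: Itgam between 5.21 and 5.78, Itgax between 4.83 and 4.98, and Itgad between 4.80 and 5.12.

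The alpha4 and beta7 chains form the pairs that bind VCAM-1 and the gut addressin MAdCAM-1, and alphaE (CD103) with beta7 forms the receptor for E-cadherin. Itga4 had levels of 11.65 in KO TFR, 11.64 in WT TFR, 11.90 in KO non-TFR and 11.84 in WT non-TFR cells. Itgb7 had levels of 10.51 in KO TFR, 10.54 in WT TFR, 10.79 in KO non-TFR and 10.91 in WT non-TFR cells. Both chains were a little lower in TFR cells of both genotypes, with differences from -0.38 to -0.21, and differed by at most 0.12 in size between genotypes.

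Itgae behaved unlike its partner chain. It was at 8.29 in KO TFR, 8.64 in WT TFR, 9.72 in KO non-TFR and 8.94 in WT non-TFR cells, so the knockout held both the lowest and the highest array. The genotype difference was -0.35 in TFR cells (1.27-fold lower in the knockout) and 0.78 in non-TFR cells (1.71-fold higher). The gap between the populations was accordingly -1.43 in the knockout (2.69-fold lower in TFR cells) and -0.30 in the control (1.23-fold lower). Only 0.4% of expressed genes had a lower TFR minus non-TFR difference in the knockout than Itgae.

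The alphaV chain pairs with several beta chains, most of which bind ligands with an RGD motif. Itgav was at 9.59 in KO TFR and 9.45 in WT TFR cells, against 8.94 in KO non-TFR and 8.54 in WT non-TFR cells, higher in TFR cells by 0.65 in the knockout (1.57-fold) and 0.91 in the control (1.87-fold). Itgb8, its partner in TGF-beta activation, was at 9.46 in KO TFR, 8.85 in WT TFR, 8.79 in KO non-TFR and 8.15 in WT non-TFR cells. The Itgb8 levels were higher in the knockout than in the control of the same population, by 0.61 in TFR cells (1.52-fold) and 0.65 in non-TFR cells (1.57-fold), and TFR cells had more than non-TFR cells, by 0.66 in the knockout (1.58-fold) and 0.71 in the control (1.63-fold). Itgb8 was the one expressed member at least 1.5-fold apart in all 4 comparisons. Both chains of alphaVbeta8 were thus higher in TFR cells, and its beta chain also in the knockout, where Itgav differed by 0.14 in TFR and 0.40 in non-TFR cells. A second Itgav probe, between 4.24 and 5.46 and so below the limit in every array, gave -0.55 and -0.13 for these genotype differences. The mean of both probes gave -0.20 in TFR and 0.14 in non-TFR cells. The sign of the Itgav genotype difference in TFR cells thus turned only when a probe not shown to be above background was counted.

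Itgb5, the beta chain of a vitronectin receptor, was at 7.00 in KO TFR and 6.74 in WT TFR cells, against 5.97 in KO non-TFR and 5.19 in WT non-TFR cells. The WT non-TFR array lay below the expression limit, so its difference of 1.55 from WT TFR cells is given without a fold; in the knockout Itgb5 was 1.03 higher in TFR cells (2.05-fold). Itgb1, the most widely shared beta chain, was at 10.48 in KO TFR, 10.13 in WT TFR, 10.24 in KO non-TFR and 9.29 in WT non-TFR cells. The WT non-TFR array stood below the other 3, by 0.95 from KO non-TFR (1.93-fold higher in the knockout) and by 0.83 from WT TFR cells (1.78-fold higher in TFR cells), while KO and WT TFR cells differed by 0.35.

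Itgb3, the beta chain of the platelet fibrinogen receptor and of a vitronectin receptor, had the opposite pattern to Itgb1. It was at 7.50 in KO TFR, 7.66 in WT TFR, 7.71 in KO non-TFR and 8.45 in WT non-TFR cells, with WT non-TFR cells above the others. The difference was -0.74 between the genotypes in non-TFR cells (1.68-fold lower in the knockout) and -0.79 between the populations in the control (1.72-fold lower in TFR cells). Of platelet-associated transcripts, Gp9 and Selp were also highest in WT non-TFR cells: the platelet glycoprotein Gp9 was at 6.74 in KO TFR, 6.69 in WT TFR, 6.99 in KO non-TFR and 7.30 in WT non-TFR cells, and P-selectin, Selp, at 5.78, 6.29, 6.48 and 7.29 in the same groups. Treml1, the other platelet marker above the limit, was at 6.20 in KO TFR, 6.13 in WT TFR, 6.03 in KO non-TFR and 6.08 in WT non-TFR cells, highest in KO TFR cells. The summed linear level of the 7 measured platelet markers was 314 in KO TFR, 300 in WT TFR, 341 in KO non-TFR and 370 in WT non-TFR cells, with Pf4, Ppbp, Gp5, Gp6 and Clec1b at or below the limit, of which Ppbp was lowest in WT non-TFR and Gp5 highest in KO non-TFR cells. Their part in the Itgb3 values was not tested. Itga2b, the platelet partner of Itgb3, was between 5.99 and 6.31 and was highest in WT TFR cells.

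Among the laminin and collagen receptor chains, Itga6 was clearly expressed and lower in TFR cells. It was at 8.66 in KO TFR, 9.09 in WT TFR, 9.82 in KO non-TFR and 10.04 in WT non-TFR cells. TFR cells had lower levels by a difference of -1.16 in the knockout (2.24-fold) and -0.95 in the control (1.93-fold), and KO cells were lower in both populations, with differences of -0.43 in TFR and -0.22 in non-TFR cells. Its partner Itgb4 was below 5.91 in 3 of 4 arrays, between 5.25 and 5.92. Itga7, a laminin receptor chain known from muscle, was at 6.98 in KO TFR, 6.41 in WT TFR, 6.58 in KO non-TFR and 6.02 in WT non-TFR cells, higher in the knockout by 0.58 in TFR cells (1.49-fold) and 0.56 in non-TFR cells (1.48-fold), just short of 1.5-fold. Itga2, a collagen receptor chain, ran from 5.84 to 6.20, close to the limit. The fibronectin receptor chain Itga5 was at 6.52 in KO TFR, 6.74 in WT TFR, 6.78 in KO non-TFR and 7.21 in WT non-TFR cells, lower in the knockout by a difference of -0.22 in TFR and -0.43 in non-TFR cells.

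The remaining integrin chains had means below the limit. Itga1 lay between 4.63 and 5.10, Itga3 between 5.27 and 6.17, Itga9 between 5.67 and 5.99, Itga11 between 5.38 and 5.81, and Itgb6 between 4.40 and 4.55. Itga8 was at 4.15 in KO TFR and 3.93 in WT TFR cells, against 5.14 in KO non-TFR and 4.98 in WT non-TFR cells. That is a difference of -0.99 in the knockout and -1.06 in the control, at levels not shown to be above background. Of the 24 alpha-beta pairs listed, 13 had both chains expressed.

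Selplg encodes PSGL-1, the main selectin ligand of T cells. It was at 12.15 in KO TFR, 12.55 in WT TFR, 12.55 in KO non-TFR and 12.87 in WT non-TFR cells. Its levels were lower in the knockout in both populations, with differences of -0.41 in TFR (1.33-fold) and -0.32 in non-TFR cells (1.25-fold), and lower in TFR cells of both genotypes by the same sizes. The second Selplg probe, dimmer, gave genotype differences of -0.18 in both populations and population differences of -0.65 in both genotypes.

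Of the immunoglobulin-type ligands, Icam2, a ligand of LFA-1, was at 6.81 in KO TFR and 6.84 in WT TFR cells, against 7.62 in KO non-TFR and 7.78 in WT non-TFR cells. The populations were separate in both genotypes, with differences of -0.82 in the knockout (1.76-fold lower in TFR cells) and -0.95 in the control (1.93-fold lower), and the genotypes were within 0.16 of each other. Icam1, an inducible ligand of LFA-1, was at 9.65 in KO TFR, 9.71 in WT TFR, 9.45 in KO non-TFR and 9.46 in WT non-TFR cells, a little higher in TFR cells. Pecam1 (CD31), an adhesion molecule of leukocytes and endothelium, was at 9.94 in KO TFR, 9.84 in WT TFR, 10.17 in KO non-TFR and 10.37 in WT non-TFR cells, lower in TFR cells by a difference of -0.53 in the control and -0.23 in the knockout. Vcam1, a ligand of alpha4 integrins made mainly by stroma and vessels, was between 5.47 and 5.83 and below the limit.

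Cd44, the hyaluronan receptor that activated T cells carry, and Cd226, a costimulatory receptor for CD155 and CD112, were placed between the genotypes as Itgae was. Cd44 was at 8.72 in KO TFR, 8.99 in WT TFR, 8.92 in KO non-TFR and 8.39 in WT non-TFR cells, with genotype differences of -0.28 in TFR (1.21-fold lower) and 0.53 in non-TFR cells (1.45-fold higher). Cd226 was at 9.90 in KO TFR, 10.24 in WT TFR, 10.56 in KO non-TFR and 10.13 in WT non-TFR cells, with genotype differences of -0.34 (1.27-fold lower) and 0.43 (1.35-fold higher). For both genes the TFR minus non-TFR difference had opposite signs in the genotypes: -0.21 in the knockout and 0.61 in the control for Cd44, and -0.66 and 0.12 for Cd226. Itgae, Cd44 and Cd226 were the expressed members with genotype differences of at least 0.25 in opposite directions, 3 of 25 (12%), and 2.3% of all expressed genes had such differences. Cd47, the ligand of SIRP-alpha on phagocytes, was at 10.95 in KO TFR, 10.97 in WT TFR, 11.26 in KO non-TFR and 11.46 in WT non-TFR cells, lower in TFR cells by differences of -0.31 in the knockout and -0.48 in the control.

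**Figure D3:**
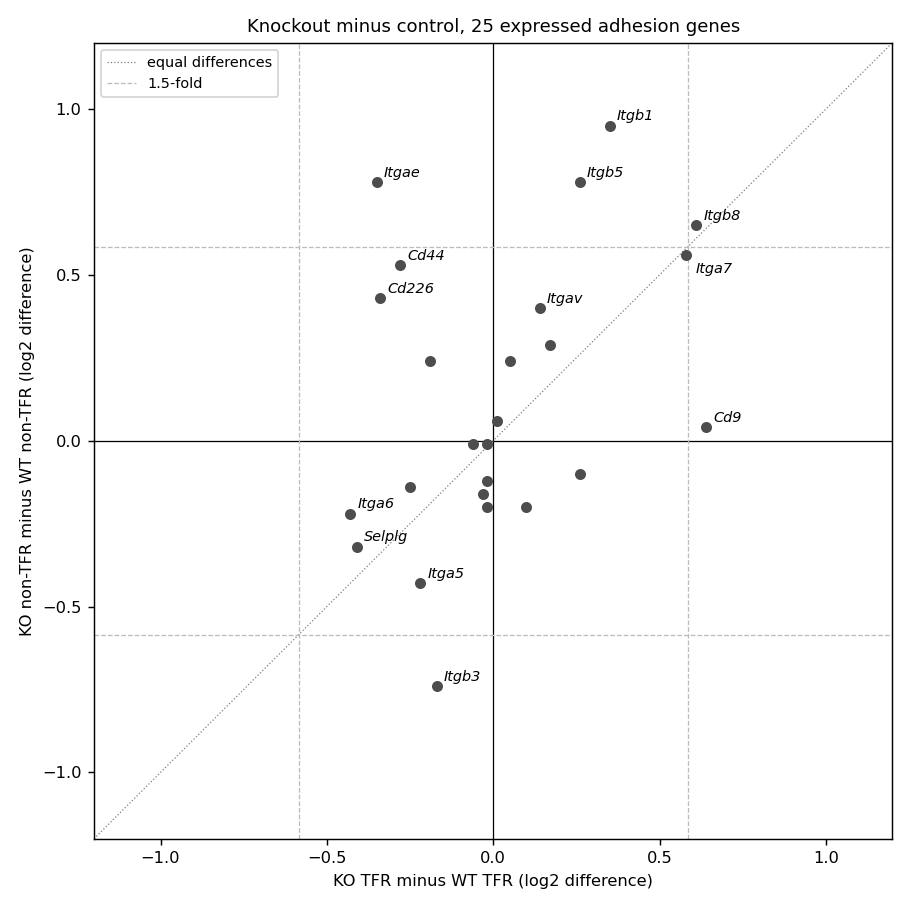
Log2 difference KO minus WT of the 25 expressed adhesion genes, in TFR cells (horizontal axis) and non-TFR cells (vertical axis), each point a gene and each axis a pair of arrays; dashed lines mark 1.5-fold and the dotted line equal differences. Itgb8 lies past 1.5-fold on both axes at 0.61 and 0.65, Cd9 on the TFR axis alone at 0.64, and Itgae, Cd44 and Cd226 lie in the upper left part, lower in KO TFR and higher in KO non-TFR cells.

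Among the tetraspanins, Cd9 stood out in one array. It was at 9.68 in KO TFR, 9.04 in WT TFR, 9.23 in KO non-TFR and 9.19 in WT non-TFR cells, 0.64 higher in KO than WT TFR cells (1.55-fold) and 0.04 apart between the genotypes in non-TFR cells. A second Cd9 probe, below the limit in every array, was at 5.17 in KO TFR and 5.25 in WT TFR cells. With it, the mean of both probes gave a difference of 0.27, short of 1.5-fold. In KO TFR cells the lysosomal protein gene Cd68, a macrophage marker, was also higher, at 9.17 against 7.97 in WT TFR cells. The other 11 of the 12 myeloid markers, Lyz2, Csf1r and Adgre1 among them, were at or below the limit. The summed level of the 12 was 898 in KO TFR, 550 in WT TFR, 494 in KO non-TFR and 494 in WT non-TFR cells. That sum includes Cd68 itself, and the median KO minus WT TFR difference over the 12 was -0.007. The part of Cd68 and the other myeloid markers in the Cd9 value was not tested. Cd81 was at 11.71 in KO TFR and 11.54 in WT TFR cells, against 11.20 in KO non-TFR and 10.91 in WT non-TFR cells, higher in TFR cells by 0.51 in the knockout (1.42-fold) and 0.63 in the control (1.55-fold). Cd151, a partner of laminin-binding integrins, was between 6.57 and 6.92.

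The targeted gene encodes a DNA-binding repressor, and for that reason some promoters are shown. They are those of Itgb8 and Itgav, which were both higher in TFR cells, Itgb8 also in the knockout of both populations, and of Cd9 and Cd44, which differed between the genotypes in one population or in opposite directions. Itgae and Cd226, which also differed in opposite directions, had no window in the source used. Each is the 250 bases before the RefSeq gene start (GRCm38.p6), written 5′ to 3′ along the gene, and capitals mark the letters searched for on both strands: GAAAG, the core of known Blimp-1 sites, and the longer AGNGAAAG, which contains that core.
Itgb8, chr12:119238277-119238526, minus strand: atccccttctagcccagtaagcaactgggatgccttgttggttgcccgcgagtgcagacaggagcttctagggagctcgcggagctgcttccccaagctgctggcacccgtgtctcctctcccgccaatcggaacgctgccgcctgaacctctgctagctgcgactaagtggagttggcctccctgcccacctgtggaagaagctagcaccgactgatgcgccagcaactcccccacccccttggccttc
Itgav, chr2:83724147-83724396, plus strand: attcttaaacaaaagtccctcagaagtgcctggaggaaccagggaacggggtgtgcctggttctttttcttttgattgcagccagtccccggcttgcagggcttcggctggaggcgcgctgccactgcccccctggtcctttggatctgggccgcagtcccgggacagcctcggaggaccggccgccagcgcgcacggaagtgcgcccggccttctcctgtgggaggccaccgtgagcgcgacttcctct
Cd9, chr6:125494761-125495010, minus strand: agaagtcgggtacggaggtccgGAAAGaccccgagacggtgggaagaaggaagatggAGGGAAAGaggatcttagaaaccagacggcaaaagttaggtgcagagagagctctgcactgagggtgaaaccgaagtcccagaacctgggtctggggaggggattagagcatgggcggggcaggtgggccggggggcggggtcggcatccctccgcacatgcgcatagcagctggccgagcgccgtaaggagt
Cd44, chr2:102901666-102901915, minus strand: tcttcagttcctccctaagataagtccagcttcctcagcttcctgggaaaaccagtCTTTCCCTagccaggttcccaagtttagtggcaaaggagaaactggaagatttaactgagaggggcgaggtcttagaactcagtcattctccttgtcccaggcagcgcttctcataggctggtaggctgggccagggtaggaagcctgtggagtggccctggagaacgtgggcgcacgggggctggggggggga
The Itgb8 and Itgav windows held neither set of letters. Windows of Itgb1 and Itgb5, which were 0.95 and 0.78 higher in KO than WT non-TFR cells, exist but are not shown. The Itgb1 window held GAAAG at 2 places and no AGNGAAAG, and the Itgb5 window held neither. The Cd9 window held GAAAG at 2 places, 1 of them within AGNGAAAG, and the Cd44 window held 1 AGNGAAAG, read on the opposite strand. Over all 32851 promoter windows of this length, 51.5% held GAAAG and 7.3% held AGNGAAAG. The 24 adhesion genes with a window had 28 windows, and 14 of these genes held GAAAG in at least 1 window. AGNGAAAG was held by 4 of them: Cd44, Cd9, Itga2b and Itga10, the last without an expression value here. Shares of windows and counts of genes are unlike units, so no excess or lack is read from them. A match describes letters in this window and does not show binding.

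The proteins that switch integrins on and tie them to actin were mostly level, except Rasgrp2, Actn1 and Rasgrp1. Rasgrp2 encodes CalDAG-GEFI, an exchange factor that activates Rap1, and was at 7.73 in KO TFR, 8.71 in WT TFR, 9.17 in KO non-TFR and 10.09 in WT non-TFR cells. Its level was lower in the knockout in both populations, by differences of -0.98 in TFR (1.97-fold) and -0.91 in non-TFR cells (1.88-fold), and lower in TFR cells, by -1.44 in the knockout (2.72-fold) and -1.38 in the control (2.60-fold). Actn1, an actin crosslinker that binds integrin tails, was at 9.90 in KO TFR, 10.64 in WT TFR, 10.82 in KO non-TFR and 11.23 in WT non-TFR cells and had the same order. Rasgrp1, a Ras exchange factor downstream of the T cell receptor, was at 9.78 in KO TFR, 10.33 in WT TFR, 10.51 in KO non-TFR and 10.80 in WT non-TFR cells, again in that order. Of the 29 expressed genes in this list, 2 were at least 1.5-fold lower in KO TFR cells (1.56% of all expressed genes were) and 1 in KO non-TFR cells (1.09%), 3 in TFR cells of the knockout (6.2%) and 2 in TFR cells of the control (5.76%), and 0 were 1.5-fold higher in any of these comparisons. The talin gene Tln1 ran from 10.40 to 10.55 and the kindlin-3 gene Fermt3 from 10.35 to 10.49. The list medians over 34 measured genes were -0.019 and -0.048 between genotypes in TFR and non-TFR cells, and -0.040 and -0.062 between populations in the knockout and the control.

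Several enzymes that build selectin ligands had their highest levels in KO TFR cells, where Selplg had its lowest. The fucosyltransferase gene Fut7 was at 6.91 in KO TFR, 6.50 in WT TFR, 6.14 in KO non-TFR and 5.45 in WT non-TFR cells. Gcnt1, which starts the core 2 branch, was at 7.02 in KO TFR, 6.36 in WT TFR, 6.18 in KO non-TFR and 5.61 in WT non-TFR cells, and like Fut7 was highest in KO TFR and lowest in WT non-TFR cells. The sulfotransferase gene Chst2 was at 8.59 in KO TFR and 8.60 in WT TFR cells, against 7.73 in KO non-TFR and 7.13 in WT non-TFR cells, 0.85 higher in TFR cells of the knockout (1.81-fold) and 1.47 higher in those of the control (2.78-fold). The sialyltransferase gene St3gal3 was at 8.82 in KO TFR, 8.02 in WT TFR, 7.78 in KO non-TFR and 7.73 in WT non-TFR cells, with KO TFR cells 0.80 above WT TFR cells (1.74-fold). Other enzymes were placed otherwise: St3gal4 was at 7.58, B4galt1 at 9.20 and Tpst2 at 9.88 in KO TFR cells, each its lowest array. St3gal6, whose mean of 5.89 lay just under the limit, was at 5.34 in KO TFR and 5.25 in WT TFR cells, against 6.41 in KO non-TFR and 6.56 in WT non-TFR cells, with TFR minus non-TFR differences of -1.06 in the knockout and -1.31 in the control. Of the 12 expressed enzymes, 2 passed 1.5-fold upward in KO TFR against WT TFR cells (2.16% of all expressed genes did) and 2 in KO against WT non-TFR cells (3.69%), 4 in TFR cells of the knockout (8.54%) and 3 in those of the control (10.3%). These counts include Fut7 and Gcnt1, whose WT non-TFR arrays lay below the limit, and 0 of the expressed enzymes were 1.5-fold lower in any of the comparisons. Medians over the 16 measured enzymes were 0.163, 0.066, 0.134 and 0.082 in the same order of comparisons.

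**Figure D4:**
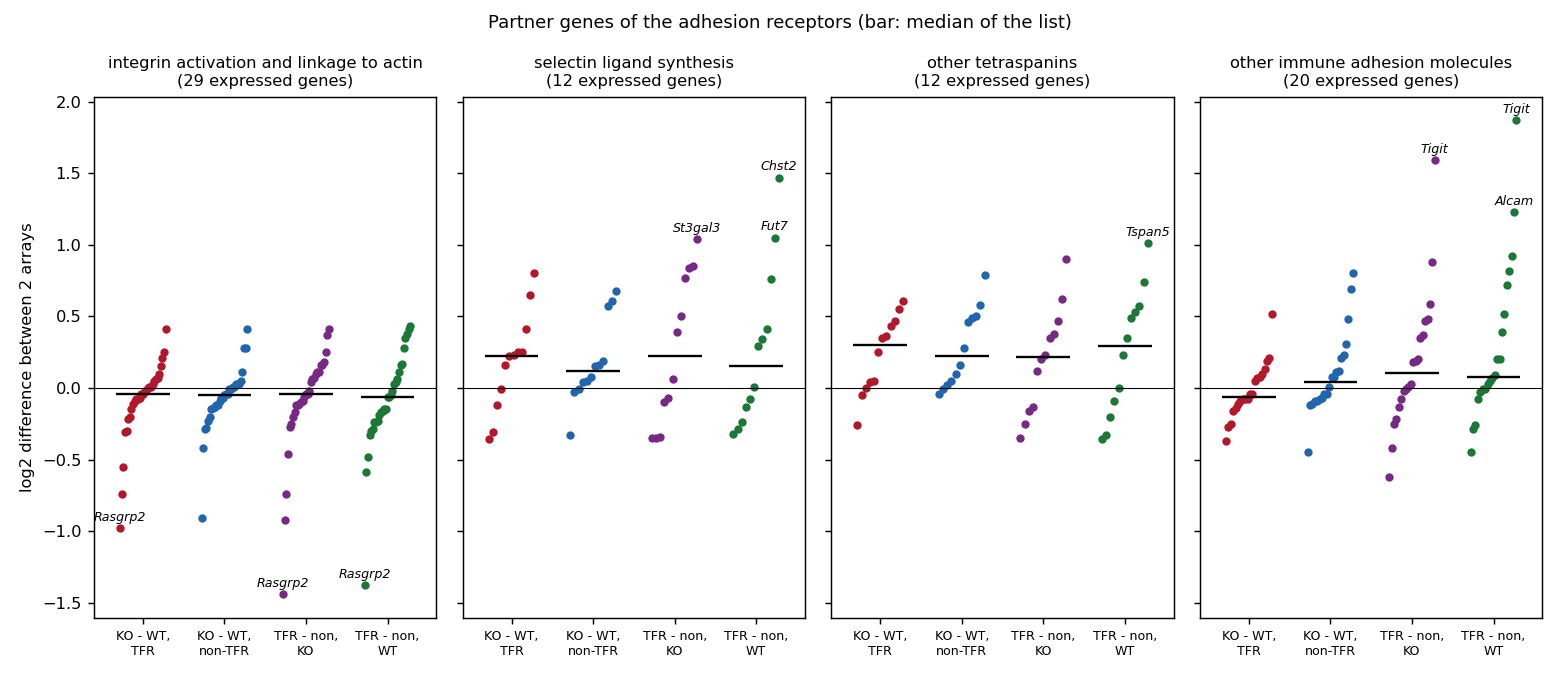
Log2 differences of the expressed genes in 4 lists of partner genes, each point a gene, columns the 4 comparisons (KO minus WT in TFR and in non-TFR cells, TFR minus non-TFR in the knockout and in the control), bars the median of the expressed genes. Rasgrp2 lies lowest in each column of the integrin activation list, and Chst2, St3gal3 and Fut7 reach 1.47, 1.04 and 1.05 in the selectin ligand list.

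Cd226 shares its ligand CD155 with Tigit and Cd96, of which Cd96, like Cd226, was lowest in KO TFR cells and Tigit was highest there. Tigit, an inhibitory receptor that competes with Cd226 for CD155, was at 11.92 in KO TFR, 11.41 in WT TFR, 10.34 in KO non-TFR and 9.54 in WT non-TFR cells, higher in the knockout by 0.52 in TFR and 0.80 in non-TFR cells. Cd96, another CD155 receptor, was at 11.11 in KO TFR, 11.36 in WT TFR, 11.73 in KO non-TFR and 11.64 in WT non-TFR cells. Alcam, the ligand of CD6, was at 8.33 in KO TFR, 8.28 in WT TFR, 7.74 in KO non-TFR and 7.05 in WT non-TFR cells, with WT non-TFR cells lowest. Nectin1 was at 7.82 in KO TFR and 7.90 in WT TFR cells, against 6.93 in KO non-TFR and 6.98 in WT non-TFR cells, higher in TFR cells and within 0.08 between genotypes. Of 20 expressed genes in this list, 0 were 1.5-fold apart between genotypes in TFR cells, beside 2.16% of all expressed genes higher and 1.56% lower, and 2 were higher in KO non-TFR cells, beside 3.69%. In TFR cells of the knockout 3 were higher (beside 8.54%) and 1 lower (beside 6.2%), and in those of the control 5 were higher (beside 10.3%) and 0 lower (beside 5.76%).

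Of 12 expressed genes among the other tetraspanins, 10 had a difference above 0 in each genotype comparison, beside 53.8% of all expressed genes in TFR and 55.7% in non-TFR cells. In each population comparison 8 of the 12 did, beside 51.6% in the knockout and 52.4% in the control. Medians over the 19 measured were 0.144 in TFR and 0.062 in non-TFR cells between genotypes, and 0.120 in the knockout and 0.203 in the control between populations. Tspan5 was at 8.65 in KO TFR, 8.18 in WT TFR, 7.75 in KO non-TFR and 7.17 in WT non-TFR cells, and Tspan3 was at 9.39, 8.78, 8.77 and 8.29 in the same groups, both ordered as Itgb8 was. Tspan17 was at 7.96 in KO TFR, 7.40 in WT TFR, 7.84 in KO non-TFR and 7.05 in WT non-TFR cells, higher in both KO arrays.

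Of the matrix and TGF-beta ligands of integrins, 7 of 22 measured genes were expressed. Lrrc32, whose product GARP holds latent TGF-beta on regulatory T cells, was at 10.27 in KO TFR, 11.05 in WT TFR, 10.83 in KO non-TFR and 11.12 in WT non-TFR cells, a difference of -0.78 between the genotypes in TFR cells (1.72-fold lower in the knockout), where Itgb8 was higher. Tgfb1, the cytokine that GARP and alphaVbeta8 handle, was at 11.35 in KO TFR, 11.74 in WT TFR, 11.51 in KO non-TFR and 11.50 in WT non-TFR cells, lowest in KO TFR cells. Fbln1, a matrix glycoprotein, was at 6.60 in KO TFR, 7.20 in WT TFR, 6.27 in KO non-TFR and 6.54 in WT non-TFR cells. Selectin genes are represented by Selp, given above, while Sele and the other listed ligands except Madcam1 and Spn lay below the limit.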

How the data were processed

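Total RNA of 4 samples, 1 per group, was hybridized to Affymetrix Mouse Gene 2.0 ST arrays, and samples were assigned to groups by title. The authors deposited 1 log2 value per probe and array for 41345 probes; no source names the scale, and log2 was taken from the range of 2.23 to 13.82. Per the submitters' processing notes the tool named is MAS5, with version, role, background correction, summarization and genome build not given in the sources used here. No detection calls were used here.

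Deposited medians spanned 0.105, so all probes were quantile normalized with limma 3.58.1 in R 4.3.3. This makes the 4 distributions equal and would also remove a real shift shared by most genes. Of the probes, 23521 had 1 gene in the platform annotation, 1814 had several and 16010 were not named there. The brightest probe on average stood for its gene, which left 22180 genes. All 36 measured adhesion genes matched RefSeq by Entrez identifier. Summed marker levels are sums of values taken back to the linear scale.

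Every comparison is a log2 difference of 2 arrays, with 0 residual degrees of freedom, no test and no error. Precision is limited by the number of arrays. Members, lists and thresholds were chosen with earlier results of these data known. Named genes were all members, in full where an expressed member was at least 1.5-fold apart or formed LFA-1, alpha4beta1, alpha4beta7, alphaEbeta7 or alphaVbeta8, and up to 4 expressed genes per partner list and comparison; the members' counts and medians were also computed with other normalizations, filters and probe rules. The counting step was run on simulated data with changes set well past the limit and little noise. That checks the code only and says nothing about how reliable the differences here are. Promoter sequences came from RefSeq (GRCm38.p6).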

Additional observations from a re-analysis of the deposited data

Results flagged for a closer look

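Itgae, Cd44 and Cd226 had genotype differences in opposite directions in the populations, lower in KO TFR than WT TFR cells and higher in KO non-TFR than WT non-TFR cells, each by at least 0.25 on the log2 scale. The genotype difference in TFR cells minus that in non-TFR cells was -1.13 for Itgae, -0.81 for Cd44 and -0.77 for Cd226. These differences were not tested, since each group is 1 array. Among all expressed genes 150 (1.35%) were lower in KO TFR and higher in KO non-TFR cells by at least 0.25. The middle 95% of expressed genes had genotype differences from -0.5 to 0.56 in TFR and from -0.44 to 0.68 in non-TFR cells. Of the genotype differences of Itgae, Cd44 and Cd226, only that of Itgae in non-TFR cells, 0.78, lay outside these ranges.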

How the results depend on the processing

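No paired analysis was possible because each group is 1 array and the labels carry no replicate numbers. Of 750 recomputed values of single expressed members (the 4 differences and the difference between the genotype differences), 738 stayed on the same side of 1.5-fold, 8 no longer passed it and 4 newly passed it. No difference past 1.5-fold changed sign. The floor setting raised values below 4.7 to 4.7, and every array of these members lay above it, so its 125 values could not move. The mean of all probes could move only the 3 members with 2 probes. Cd9 in KO minus WT TFR was 0.27 with the mean of all probes. Itgal in WT TFR minus WT non-TFR was 0.54 with cyclic loess and 0.53 with 75th percentile centring, and Cd44 there was 0.55 with quantile normalization over probes with 1 gene. Cd226 in KO TFR minus KO non-TFR was -0.56 as deposited. Itgae, Cd44 and Cd226 stayed lower in KO TFR and higher in KO non-TFR cells under all 6 settings of normalization, probe rule or floor. Each of the genes has 1 probe and lay above the floor, so the floor and the mean of all probes could not change them.

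Counts past 2-fold were small and moved with the rules. At 1.5-fold in place of 2-fold, 2 members were higher in KO than WT TFR cells, 4 higher and 1 lower in KO than WT non-TFR cells, 3 higher and 4 lower in KO TFR than KO non-TFR cells, and 7 higher and 3 lower in WT TFR than WT non-TFR cells, by construction of the lower limit. Itgb5 is in the higher counts of both comparisons with WT non-TFR cells, where its array lay below 5.91. For KO TFR minus KO non-TFR the higher count was 0 with 75th percentile centring, with quantile normalization over probes with 1 gene and above the 75th percentile of expression. For WT TFR minus WT non-TFR the higher count was 2 as deposited, 2 with the mean of all probes and 0 above the 75th percentile, and the lower count was 1 with quantile normalization over probes with 1 gene and 1 without a filter on dim genes. The member median in KO TFR minus KO non-TFR was 0.105 as deposited, -0.114 over expressed members and -0.206 over members above the 75th percentile, and in WT TFR minus WT non-TFR it was 0.161 as deposited. As deposited the median of all genes was itself 0.120 and 0.111 in these comparisons. The cause of the other moves was not tested. Dim genes have no detection calls, and differences near or below the limit of 5.91 may be compressed.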
